A study of Mus musculus with 12 samples.

Results

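*Lcn2*, which encodes lipocalin 2, and 9 genes of neutrophils were followed through the livers of 12 mice: *S100a8*, *S100a9*, *Csf3r*, *Mmp8*, *Mmp9*, *Retnlg*, *Ngp*, *Il1b* and *Trem1*. All 10 were found by symbol among the 25676 genes of the deposited table. They were chosen with the difference between the genotypes already known, so that difference is described here without a test. The question was whether the *Lcn2* transcript rose together with neutrophil transcripts or apart from them. RNA was sequenced from whole frozen liver. There were 4 groups of 3 livers: wild-type (WT) males, WT females, and males and females labelled Foxa3-Cre YAP1 KO (KO), all on a C57BL/6 background and 3-4 months old. *Foxa3* is active in the embryonic gut endoderm, so this Cre acts in the lineage that forms hepatocytes and bile duct cells and not in blood cells; the labels do not describe the floxed allele or the genotype at *Foxa3*-Cre of the WT mice. The labels give each library its own animal number, but nothing on litters; replicate numbers used here only name livers, in order of deposition.

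Lipocalin 2 is a small secreted protein that binds bacterial siderophores and so keeps iron from bacteria. It was first known from the specific granules of neutrophils, and in inflamed liver it is also made by hepatocytes as an acute phase protein, under interleukin 1 and interleukin 6. Its transcript alone therefore does not name a cell type. S100A8 and S100A9 form calprotectin, the most abundant cytosolic protein of neutrophils, also made by young monocytes. The granule proteins NGP, MMP8 and MMP9, the resistin relative RETNLG and the receptors CSF3R and TREM1 are other markers of the lineage, of which MMP9, TREM1 and the cytokine interleukin 1 beta are shared with macrophages.

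Values are TPM (transcript abundance corrected for length, as a share of the library), in which each column sums to the same total, and differences are on the log2(TPM + 1) scale, which understates changes of low genes. Whole reads could be recovered from the steps in the TPM values for 99.5% of 16572 genes, within 0.02 reads, and these genes held 11597707 to 16770978 reads per library. *Yap1* was 29.5 ± 4.46 TPM (SD, n = 6) in WT and 2.02 ± 0.775 TPM (SD, n = 6) in KO livers, and the hepatocyte gene *Alb* was the highest of the hepatocyte markers with 42088 to 83194 TPM in every liver. Of the other 3 hepatocyte markers, *Ttr* was lower in every KO liver (2105 to 4628 TPM) than in any WT liver (5478 to 9861 TPM), and *Apoa1* and *Cps1* had overlapping ranges. The common KO minus WT difference was not 0: its median over 12278 tested genes was 0.35 on the log2 scale as deposited and -0.04 after median-of-ratios rescaling, so values of the members are also given rescaled. In bulk tissue, fewer cells of a type and less RNA per cell cannot be told apart. A single WT liver stood apart in the neutrophil genes. In WT male replicate 3, 8 of 11 neutrophil markers were listed at 0 and their sum was 0.449 TPM, against 4.82 to 22.1 TPM with 2 to 5 markers at 0 in the other 5 WT livers, while *Actb* (379 TPM), *Gapdh* (758 TPM) and *Eef1a1* (3520 TPM) lay within the range of the other WT livers. The leukocyte gene *Ptprc* was also lowest there among the WT livers, at 1.20 TPM against at most 3.11 TPM. The markers summed to 13.5 to 49.3 TPM in the KO livers. Values without this liver are given beside several of the results.

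*Lcn2* lies on chromosome 2 at 32384633 to 32388252 on the minus strand (GENCODE M21, GRCm38). *S100a8* (chromosome 3, 90668978 to 90670035, plus strand) and *S100a9* (chromosome 3, 90692632 to 90695721, minus strand) are neighbours. The 250 bases before the transcription start are shown for these 3 genes, because the results turn on how *Lcn2* compares with the calprotectin pair; they are RefSeq sequence of build GRCm38.p6, printed 5′ to 3′ on the strand of the gene, with motif matches in capitals. RefSeq starts can lie inside or outside the GENCODE gene. By the positions above, the *Lcn2* window lies wholly inside the GENCODE gene, the *S100a8* window partly inside it, and the *S100a9* window just outside it.
*Lcn2*, chr2:32387740-32387989, minus strand: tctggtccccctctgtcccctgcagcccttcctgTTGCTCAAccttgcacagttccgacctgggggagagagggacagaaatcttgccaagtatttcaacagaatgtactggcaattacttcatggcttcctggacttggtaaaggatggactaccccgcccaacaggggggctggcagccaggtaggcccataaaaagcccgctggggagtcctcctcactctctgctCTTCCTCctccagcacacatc
*S100a8*, chr3:90668821-90669070, plus strand: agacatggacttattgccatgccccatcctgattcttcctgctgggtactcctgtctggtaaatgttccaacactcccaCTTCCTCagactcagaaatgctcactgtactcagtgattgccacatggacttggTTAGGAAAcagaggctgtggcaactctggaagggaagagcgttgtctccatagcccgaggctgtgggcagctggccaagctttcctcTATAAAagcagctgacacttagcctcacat
*S100a9*, chr3:90695722-90695971, minus strand: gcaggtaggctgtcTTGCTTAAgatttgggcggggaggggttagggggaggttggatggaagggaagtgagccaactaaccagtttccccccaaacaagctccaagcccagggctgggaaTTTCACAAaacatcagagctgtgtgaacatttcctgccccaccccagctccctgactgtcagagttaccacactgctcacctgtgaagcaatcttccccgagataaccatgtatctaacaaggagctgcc
The motifs searched, on both strands, were TTNNGNAA for C/EBP factors, TTCNNNGAA for STAT factors, GAGGAAG for PU.1 and TATAAA for the TATA box, and no matches overlapped in these 3 windows. Each of the 3 windows held the C/EBP letters, which 36.8% of 32851 windows of the same length also hold. *Lcn2* has them at 216 to 209 bases before the start, *S100a8* at 117 to 110, and *S100a9* at 236 to 229 and at 130 to 123. The PU.1 letters, in 10.6% of windows, stood in *Lcn2* (CTTCCTC on the printed strand, 21 to 15 bases before the start) and in *S100a8* (171 to 165 bases before it). The TATA letters, in 12.4% of windows, were present in *S100a8* at 30 to 25 bases before the start. The STAT letters, in 7.02% of windows, were in none of the 3. Windows were available for 9 of the 10 genes, all but *Mmp9*, and only these 3 are printed. Matches are descriptions of letters and not binding sites.

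*Lcn2* was at most 67.0 TPM in any WT liver and at least 824 TPM in every KO liver. WT males had 15.8, 67.0 and 6.81 TPM and WT females 52.4, 16.7 and 18.3 TPM. KO males had 1849, 2252 and 1556 TPM and KO females 1776, 824 and 1497 TPM. The lowest KO liver, a female, thus lay far above the highest WT liver, a male. The means were 29.5 ± 24.2 TPM (SD, n = 6) in WT and 1626 ± 475 TPM (SD, n = 6) in KO livers, a ratio of 55.1, or 38.4 after rescaling. On the log2 scale KO livers were 6.06 higher (SE 0.45), and 5.60 higher after rescaling, and the difference was 5.70 without WT male replicate 3. These values rest on 110 to 1016 recovered reads in each WT liver and 9818 to 25991 in each KO liver. In the authors' deposited table the *Lcn2* log2 fold change was 5.08, with an FDR p-value printed as 0.00.

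The calprotectin genes were present at low levels in both genotypes. *S100a8* stood at 3.00, 5.20 and 0 TPM in WT males, 6.39, 3.11 and 1.02 TPM in WT females, 10.5, 9.48 and 3.07 TPM in KO males and 19.0, 4.05 and 13.3 TPM in KO females. Of the KO livers, 4 lay above the highest WT liver, and KO male replicate 3 and KO female replicate 2 lay inside the WT range. The listed 0 in WT male replicate 3 allows up to 0.472 TPM, the level of 3 reads. Its partner *S100a9* stood at 7.86, 10.1 and 0 TPM in WT males, 5.94, 7.23 and 2.18 TPM in WT females, 14.3, 16.8 and 4.62 TPM in KO males and 19.2, 7.75 and 24.0 TPM in KO females. The same 2 KO livers were inside the WT range. The log2 difference was 1.48 (SE 0.48) for *S100a8* and 1.43 (SE 0.54) for *S100a9*, and 1.13 and 1.05 after rescaling. Without WT male replicate 3 these fell to 1.14 for *S100a8* and 0.95 for *S100a9* as deposited.

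Among the receptors, *Csf3r*, the receptor for the granulocyte growth factor G-CSF, stood at 2.34, 1.79 and 0.218 TPM in WT males, 1.36, 0.861 and 0.790 TPM in WT females, 3.31, 2.23 and 3.21 TPM in KO males and 5.88, 2.57 and 2.96 TPM in KO females. Only KO male replicate 2 fell inside the WT range. Its log2 difference was 1.00 (SE 0.24), and 0.70 after rescaling. *Trem1*, an activating receptor that amplifies inflammatory signalling, was at or below 0.152 TPM in WT and between 0.031 and 0.692 TPM in KO livers, with at most 5 reads in a WT liver and 20 in a KO liver. The log2 difference of *Trem1* was 0.29, and 0.24 after rescaling. An antisense gene overlaps *Trem1*, and whether the counting used strand is not given in the sources used here.

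The granule and secreted products of neutrophils were scarce. *Mmp8*, neutrophil collagenase, ranged from 0 to 0.470 TPM in WT and from 0.395 to 0.727 TPM in KO livers, and *Mmp9*, gelatinase B, from 0.0455 to 0.705 TPM and from 0.446 to 1.17 TPM. *Retnlg* ranged from 0 to 3.02 TPM in WT and from 0.700 to 3.95 TPM in KO livers. *Ngp*, neutrophilic granule protein, ranged from 0 to 1.23 TPM in WT and from 0.641 to 2.38 TPM in KO livers. The genotypes overlapped for each of these 4 genes, and no liver had more than 38 reads for any of them. The log2 differences were 0.39 for *Mmp8*, 0.36 for *Mmp9*, 0.61 for *Retnlg* and 0.64 for *Ngp*, and after rescaling 0.27, 0.19, 0.36 and 0.50. Without WT male replicate 3 they were 0.34, 0.28, 0.38 and 0.60 as deposited.

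*Il1b*, the cytokine, stood at 4.71, 2.88 and 1.81 TPM in WT males, 0.858, 1.88 and 5.29 TPM in WT females, 13.1, 5.37 and 9.14 TPM in KO males and 18.4, 10.1 and 4.97 TPM in KO females. KO female replicate 3 lay below the highest WT female, and the other 5 KO livers lay above every WT liver. The log2 difference was 1.52 (SE 0.34), and 1.14 after rescaling. An antisense gene overlaps *Il1b* as well.

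**Figure D1:**
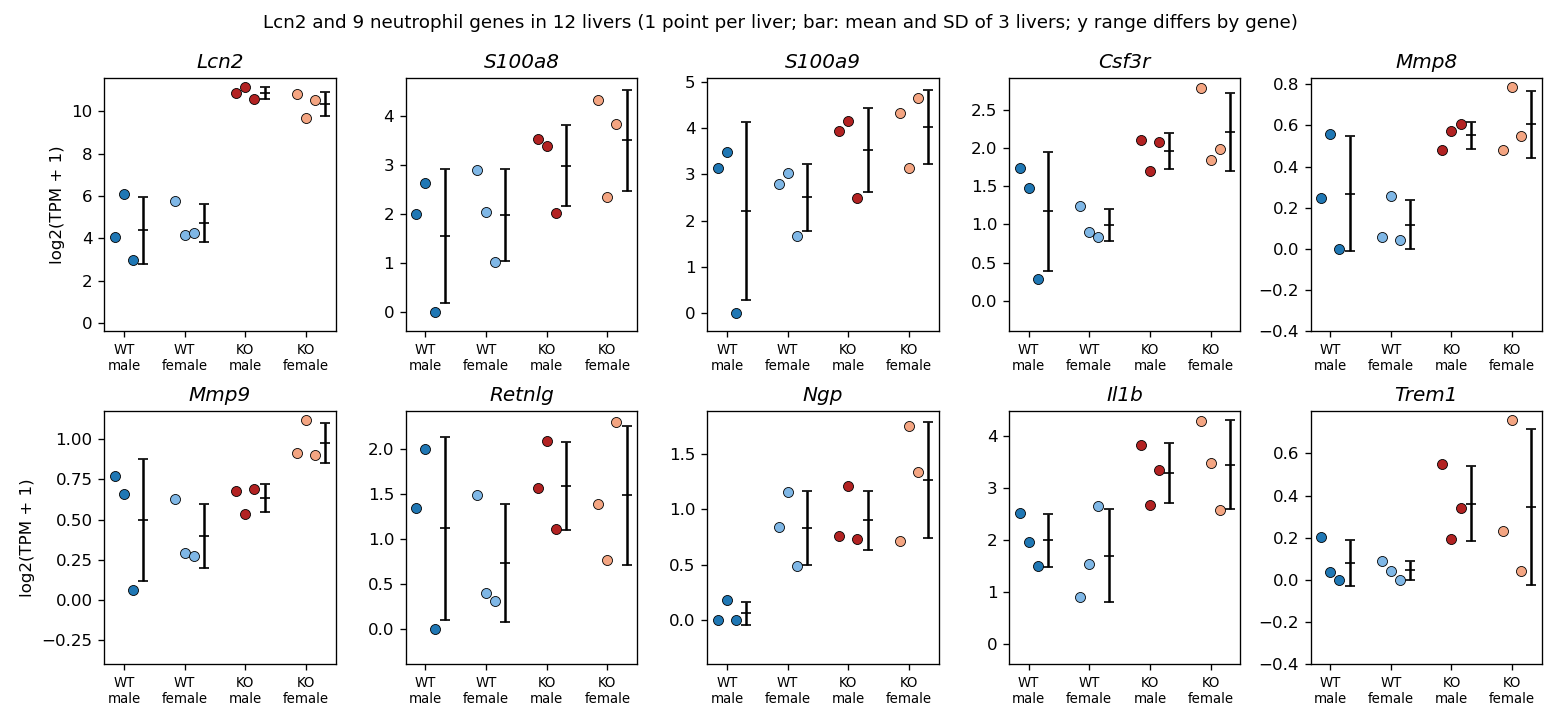
Each panel plots log2(TPM + 1) of 1 gene in 12 livers by group, with the group mean and SD of 3 livers beside the points; the y range differs by gene. *Lcn2* shows a gap between all WT and all KO livers, whereas the 9 neutrophil genes overlap between the genotypes.

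All 6 KO livers lay above all 6 WT livers for 1 of the 10 genes, *Lcn2*; this separation was found in 28.7% of the 12278 tested genes as deposited and in 10.8% after rescaling. The mean of 0.5 TPM needed for testing was reached by 8 of the 10; *Mmp8* and *Trem1* were under it. The share above is background only, since the members were chosen on this comparison. By log2 difference among the 12278 tested genes, *Lcn2* was at percentile 100, while *Il1b*, *S100a8* and *S100a9* were at percentiles 94.6, 94.1 and 93.7, *Csf3r* at 87.2, *Ngp* at 74.1, *Retnlg* at 72.5 and *Mmp9* at 50.6. In the authors' deposited table, 3 of the 10 genes had an FDR p-value printed below 0.05 (*Lcn2*, *Il1b* and *Ngp*), against 24.2% of 17332 genes, and the log2 fold changes there were 1.99 for *Ngp*, 1.65 for *Trem1*, 1.32 for *Il1b*, 1.19 for *S100a8*, 0.89 for *Csf3r*, 0.74 for *S100a9*, 0.65 for *Mmp8*, 0.27 for *Mmp9* and -0.06 for *Retnlg*. For *Ngp* and *Trem1* these are larger than the differences on the log2(TPM + 1) scale, 0.64 and 0.29.

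The level of *Lcn2* relative to the calprotectin pair differed between the genotypes by more than the livers within a genotype did. The ratio of *Lcn2* TPM to the summed TPM of *S100a8* and *S100a9* was 1.45 and 4.37 in 2 WT males, could not be formed in WT male replicate 3, where the sum is listed at 0, and was 4.25, 1.62 and 5.73 in WT females. It was 74.6, 85.6 and 202.5 in KO males and 46.6, 69.8 and 40.1 in KO females. Against the sum of all 9 neutrophil genes, *Lcn2* stood at a ratio of 0.770 to 3.29 in the 6 WT livers and 26.9 to 66.9 in the 6 KO livers. KO male replicate 3 carries the highest ratio by both measures. It had 7.68 TPM of *S100a8* and *S100a9* together, less than 4 of the 6 WT livers, and 1556 TPM of *Lcn2*. These ratios use the same values that chose the genes and are a description.

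**Figure D2:**
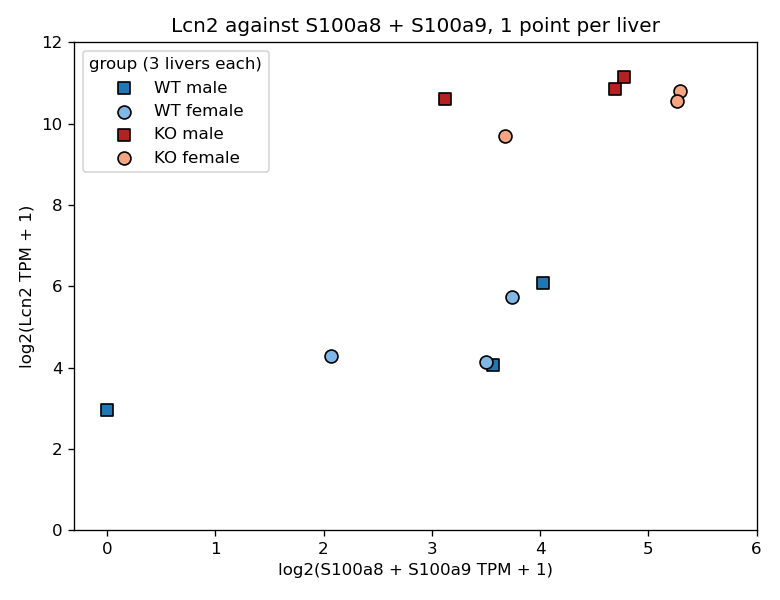
*Lcn2* against the sum of *S100a8* and *S100a9*, both as log2(TPM + 1), with 1 point per liver, squares for males and circles for females. At like levels of the calprotectin pair the KO livers sit far above the WT livers; KO male replicate 3 and KO female replicate 2 lie within the WT range on the x axis.

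Whether livers with more neutrophil transcript also had more *Lcn2* was asked inside each genotype, over 6 livers, since the genotypes form separate clusters. In the WT livers, Pearson's r of *Lcn2* was above 0 with 8 of the 9 genes, with a median of 0.625; without WT male replicate 3 it was above 0 with 6 and the median was 0.390. It was 0.869 with *S100a8* (exact permutation p = 0.0403, adjusted 0.242; Spearman's rho 0.771, exact p = 0.103) and 0.859 with *Retnlg* (exact permutation p = 0.0236, adjusted 0.212; rho 0.771, exact p = 0.103). Without the 2 livers farthest from the median of the neutrophil gene, r was 0.931 for *S100a8* and 0.580 for *Retnlg*. With *S100a9* r was 0.725 (exact permutation p = 0.117, adjusted 0.333; rho 0.486, exact p = 0.356), and 0.216 without the 2 farthest livers. WT male replicate 3, which has the lowest *Lcn2* and the lowest sum of neutrophil markers of the 6, moved these values: without it r was 0.751 with *S100a8*, 0.783 with *Retnlg*, 0.390 with *S100a9*, 0.253 with *Csf3r* (from 0.625), 0.430 with *Mmp9* (from 0.689) and 0.403 with *Mmp8* (from 0.570). Other livers moved them too. With *Mmp8* r was 0.0426 without WT male replicate 2 and 0.893 without WT female replicate 1. Without WT male replicate 1 it was 0.981 with *Csf3r* and 0.996 with *Mmp9*.

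In the KO livers, r was above 0 with 4 of the 9 genes, with a median of -0.0851. The sign of that median turned with 1 liver: it was 0.0868, with 5 genes above 0, without KO female replicate 2, and 0.256, also with 5, without KO male replicate 2. It was 0.525 with *S100a8* (exact permutation p = 0.300, adjusted 0.450; rho 0.200, exact p = 0.714), 0.443 with *S100a9* (exact permutation p = 0.408, adjusted 0.565; rho 0.143, exact p = 0.803) and 0.650 with *Retnlg* (exact permutation p = 0.153, adjusted 0.333; rho 0.429, exact p = 0.419). Without the 2 livers farthest from the median of the neutrophil gene, r was -0.536 with *S100a8*, -0.690 with *S100a9* and 0.996 with *Retnlg*, the first 2 without KO female replicate 2 and KO male replicate 3. Without KO male replicate 3 alone, r was 0.708 with *S100a8* and 0.704 with *S100a9*. KO female replicate 2, the liver with the lowest *Lcn2* of the 6, moved these values: without it r was 0.198 with *S100a8*, 0.224 with *S100a9* and 0.190 with *Retnlg*. With *Mmp9* the relation was negative, r = -0.863 (exact permutation p = 0.0181, adjusted 0.212; rho -0.829, exact p = 0.0583), and -0.223 without the 2 farthest livers, KO male replicate 2 and KO female replicate 2, taken out together. Leaving out 1 liver at a time kept it between -0.955 and -0.695. *Mmp8* had r = -0.842 (exact permutation p = 0.0722, adjusted 0.325; rho -0.486, exact p = 0.356), and -0.163 without the 2 farthest livers and -0.144 without KO female replicate 2 alone. Of the 18 relations, all two-sided, 3 had a Pearson p under 0.05 and 0 after adjustment; by Spearman 0 had a p under 0.05, and a lone relation could not pass after adjustment with a smallest p of 0.00278. The unadjusted Pearson count was 1 without WT male replicate 2, WT male replicate 3 or WT female replicate 2, each left out alone, and at most 4 without any other liver.

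Sex ran in opposite directions in the 2 genes in the KO livers, though neither difference passed the test: male minus female was 0.52 for *Lcn2* (SE 0.63; limma adjusted p = 0.901) and -0.52 for *S100a8* (SE 0.70; limma adjusted p = 0.912). With values centred on the mean of each sex, r in KO livers was 0.917 with *S100a8* (exact permutation inside each sex, p = 0.0556, adjusted 0.375) and 0.835 with *S100a9* (exact permutation p = 0.0833, adjusted 0.375), and -0.936 with *Mmp9* (exact permutation p = 0.0833, adjusted 0.375). In WT livers it was 0.866 with *S100a8* and 0.949 with *Retnlg*. The 36 pairings inside the sexes allow no p below 0.0278, and none of a lone relation below 0.5 after adjustment over 18, so no count of adjusted calls is read from them.

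**Figure D3:**
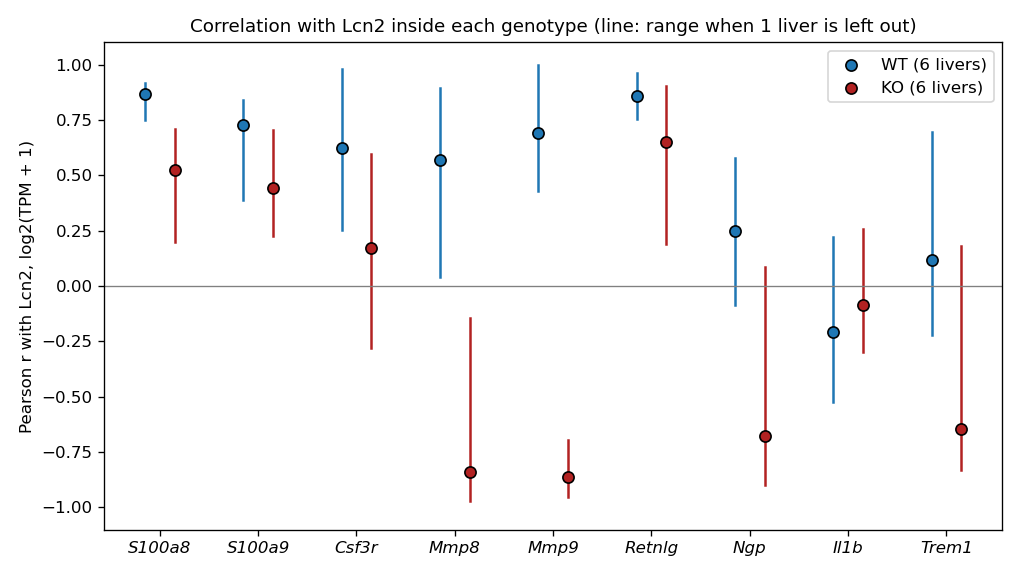
Pearson's r of *Lcn2* with each of 9 genes inside the 6 WT livers and the 6 KO livers, on log2(TPM + 1); lines span the values with 1 liver left out. Most WT points lie above 0, the KO points lie on both sides, and several lines cross 0.

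Among themselves, the 9 neutrophil genes did not form a single block. *S100a8* and *S100a9* went together in both genotypes, with r = 0.923 in WT (0.767 without WT male replicate 3) and 0.936 in KO livers, given as descriptions. Over the 36 pairs without *Lcn2*, the median r was 0.526 in WT livers, with 28 pairs above 0 (0.373 and 25 pairs without WT male replicate 3), and -0.0456 in KO livers, with 17 above 0. *Csf3r* and *Mmp9* had r = 0.977 in WT livers (0.963 without that liver) and 0.234 in KO livers. Their KO value turned on 1 liver: it was 0.715 without KO female replicate 2 and -0.129 without KO male replicate 2. *Mmp8* and *Ngp* had r = 0.791 in KO livers (0.344 without KO female replicate 2) and -0.102 in WT livers. Most of these values rest on few reads per liver.

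Among 12277 tested genes, those whose deviations from the 4 group means over the 12 livers were most like those of *Lcn2* were *Misp* (r = 0.974), an actin-binding protein of the spindle, *Tmem176b* (0.921), *Lrg1* (0.918), *Orm1* (0.908) and *Saa2* (0.907), of which *Lrg1*, *Orm1* and *Saa2* encode secreted plasma proteins of the acute phase. The median over all genes was -0.130 and the 95th percentile 0.442. *Retnlg* ranked 15 with r = 0.860, *S100a8* ranked 20 with 0.828, *S100a9* ranked 61 with 0.726, *Csf3r* ranked 166 with 0.618 and *Mmp9* ranked 259 with 0.558. *Ngp* and *Il1b* had r = -0.0530 and -0.119. These deviations pool both genotypes. As log2(TPM + 1), *Lcn2* spanned 2.97 to 6.09 in WT livers and 9.69 to 11.1 in KO livers. The likeness therefore weighs the WT livers most and says less of the KO livers. *Mmp9*, at 0.558 here, had r = -0.863 with *Lcn2* inside the KO livers. Without WT male replicate 3 *Lrg1* ranked 1 with 0.957, *Misp* 2 with 0.955, *Tmem176b* 9 with 0.880, *Orm1* 18 with 0.843 and *Saa2* 20 with 0.842. In the same livers *Retnlg* ranked 60 with 0.766, *S100a8* 101 with 0.715, *S100a9* 677 with 0.470, *Csf3r* 2008 with 0.254 and *Mmp9* 3795 with 0.0784. Without KO female replicate 2 instead, *Misp*, *Tmem176b*, *Lrg1*, *Saa2* and *Orm1* ranked 1, 3, 4, 5 and 7. There *Retnlg* ranked 21 with 0.848, *S100a8* 30 with 0.818 and *S100a9* 106 with 0.697. *Csf3r* ranked 297 with 0.578 and *Mmp9* 109 with 0.694. No other liver was left out for this ranking. The genes most like *S100a8* were *S100a9* (0.917), *Arl6ip5* (0.906), *Tmem176b* (0.899), *Orm1* (0.896) and *Lsp1* (0.894), with *Lcn2* at rank 17. Over the 12 livers as they are, where the genotype difference itself sets the likeness, *Lcn2* was nearest to *Tmem176a* (0.989), *Icam1* (0.988), *Orm2* (0.987), *Hpx* (0.986) and *Tmem176b* (0.986), against a median of 0.572 over all genes, and *S100a8* ranked 3499. All of these are descriptions, over values that share the TPM scaling.

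No member passed a test involving sex, which the choice of members did not use. Of the 8 tested genes, 0 passed the interaction of genotype and sex (0.912% of tested genes passed), 0 passed for sex in WT livers (5.74% passed) and 0 for sex in KO livers (0.0814% passed). At an unadjusted limma p under 0.05 the members numbered 0 for the interaction, 1 for sex in WT and 0 for sex in KO, against 1087, 3148 and 655 of the 12278 tested genes. The *Lcn2* difference was 6.49 (SE 0.63) in males and 5.62 (SE 0.63) in females, and male minus female was 0.87 (SE 0.90; limma adjusted p = 0.784). For *S100a8* the interaction was -0.08 (SE 0.99; limma adjusted p = 0.986) and for *Il1b* -0.46 (SE 0.69; limma adjusted p = 0.851). *Ngp* was 0.77 lower in WT males than in WT females (log2 male minus female -0.77, SE 0.26; limma adjusted p = 0.0942), with all 3 WT males below all 3 WT females. It passed this test with a pseudocount of 0.1, with a covariate for early animal numbers, or without KO female replicate 1. With an SE of 0.99 for *S100a8*, a difference of that size between the sexes in the genotype effect was not detectable.

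The wider neutrophil programme was read from lists of other genes, tested over all 12278 genes. Among all of them 54.9% passed the genotype threshold (limma adjusted p under 0.05) as deposited, 50.1% rising and 4.82% falling, and 39.6% after rescaling, 20.9% rising and 18.7% falling. Of 23 other granule and maturation genes in the table, 13 were tested, and 9 rose and 0 fell in KO livers, with a median log2 difference of 1.20 against 0.35 for all genes; after rescaling 9 rose, with a median of 0.90 against -0.04. The largest were *Cybb*, the catalytic subunit of the phagocyte NADPH oxidase, which rose from 3.03 ± 1.38 to 74.4 ± 20.7 TPM (SD, n = 6 each; log2 4.25, SE 0.23, limma adjusted p = 1.03e-08), *Prtn3*, proteinase 3 of azurophil granules (log2 3.60, SE 0.47, limma adjusted p = 3.16e-05), which overlaps an antisense gene, and *Lyz2*, lysozyme, shared with macrophages (log2 2.75, SE 0.25, limma adjusted p = 1.38e-06). *Prtn3* averaged 0.989 ± 0.991 TPM in WT and 28.7 ± 24.7 TPM in KO livers (SD, n = 6 each), with all KO above all WT livers. *Mpo*, myeloperoxidase, was 0.0582 TPM on average in WT and 0.129 TPM in KO livers, *Elane*, neutrophil elastase, 0.168 and 0.295 TPM, and *Ltf*, lactoferrin, which shares the specific granules with lipocalin 2, 0.114 and 0.418 TPM, all under the level for testing. *Camp*, the cathelicidin of the same granules, was 0.402 ± 0.725 TPM in WT and 0.699 ± 0.540 TPM in KO livers (SD, n = 6 each; log2 0.34, SE 0.24, limma adjusted p = 0.253). *Cebpe*, a transcription factor of granulocyte maturation, was 8.26 ± 3.09 TPM in WT and 6.99 ± 2.63 TPM in KO livers (SD, n = 6 each; log2 -0.22, SE 0.26, limma adjusted p = 0.499); it was named after its values were seen.

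Of 30 other surface and signalling genes, 16 were tested, and 15 rose and 0 fell (12 and 0 after rescaling), with a median of 1.31. *Lrg1*, which is both a granule protein and a hepatic plasma protein, rose from 463 ± 180 to 2399 ± 566 TPM (SD, n = 6 each; log2 2.42, SE 0.16, limma adjusted p = 9.15e-08). *Clec7a*, the beta-glucan receptor dectin 1 (log2 2.26), and *Itgb2*, the beta chain of the leukocyte integrins (1.78), are expressed by macrophages as well. *Ly6g*, the surface antigen that defines mouse neutrophils, was listed at 0 in all 6 WT and in 4 of 6 KO livers, with a KO mean of 0.0520 TPM. *Cxcr2*, the chemokine receptor that draws neutrophils, was 0.315 ± 0.411 TPM in WT and 0.428 ± 0.0969 TPM in KO livers (SD, n = 6 each) and was not tested.

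Of 14 genes listed as attracting myeloid cells or supporting their growth, 6 were tested and 6 rose, also after rescaling: the neutrophil attractants *Cxcl1* and *Cxcl2*, and *Ccl2*, *Csf1*, *Lif* and the receptor *Il17ra*. The chemokine *Cxcl1* rose from 32.7 ± 44.8 to 141.9 ± 96.9 TPM (SD, n = 6 each; log2 2.85, SE 0.71, limma adjusted p = 0.00406), with overlap between the genotypes, *Ccl2*, which draws monocytes, by 2.65 and *Cxcl2* by 1.85. *Csf3*, the ligand of CSF3R, was 0.0430 TPM on average in WT, listed at 0 in 5 of 6 livers, and 0.265 TPM in KO livers. In the KO livers it was listed at 0 in 2 of 6, with a median of 0.0785 TPM and a maximum of 1.25 TPM. The KO mean thus rests mostly on 1 liver, and the gene was not tested. Of 18 partners of interleukin 1 and TREM receptors, 15 rose and 1 fell (12 and 1 after rescaling); *Trem2*, a lipid receptor of macrophages, rose by 3.30, *Cd36* by 2.79 (larger in males than in females by the interaction as deposited, limma adjusted p = 0.0485, and not past the threshold after rescaling, limma adjusted p = 0.187) and the adaptor *Tyrobp* by 1.99, and the 1 gene that fell was *Il1rap*, the interleukin 1 co-receptor, by 1.03 (named after its values were seen).

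For lipocalin 2 itself, the list of receptors, partners and iron handling genes held 11 tested genes, of which 6 rose and 1 fell (4 and 2 after rescaling). Among all tested genes 50.1% rose as deposited and 20.9% after rescaling. The list median was 0.72 as deposited and 0.25 after rescaling, against 0.35 and -0.04 for all tested genes. *Slc22a17*, its proposed cell surface receptor, was 0.645 ± 0.407 TPM in WT and 0.927 ± 0.322 TPM in KO livers (SD, n = 6 each; log2 0.24, SE 0.14, limma adjusted p = 0.149). *Lrp2*, megalin, was at most 0.148 TPM in any liver. *Timp1*, an inhibitor of MMP9, rose by 3.20, *Timp2* by 1.59, and *Bdh2*, an enzyme proposed to make a mammalian siderophore, fell by 1.85.

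Hepatic acute phase genes, the other known setting of *Lcn2*, moved in both directions. Of 21 tested, 16 rose and 2 fell, and 8 rose and 3 fell after rescaling, with medians of 0.90 and 0.44. *Orm2*, orosomucoid 2, rose from 130 ± 101 to 3224 ± 1162 TPM (SD, n = 6 each; log2 4.99, SE 0.52, limma adjusted p = 4.23e-06), with all KO above all WT livers. *Orm3* rose by 2.58 and *Saa2* by 2.52. *Saa1* rose by 2.08 (limma adjusted p = 0.0157), and for both *Saa1* and *Saa2* the highest liver was WT (2030 and 1495 TPM, against KO maxima of 1739 and 987 TPM). Neither of these serum amyloid genes passed after rescaling (limma adjusted p = 0.0829 for *Saa1* and 0.0579 for *Saa2*). *Saa3*, which is made in macrophages, was not past the threshold (log2 -0.46, SE 0.32, limma adjusted p = 0.235).

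Markers of other cells moved with the genotype beside the members. Of 14 macrophage markers 12 rose and 1 fell (11 and 2 after rescaling), with a median of 2.08 and a summed level of 191.4 to 490.2 TPM in WT and 757.5 to 1481 TPM in KO livers; *Marco* rose by 3.49, *Gpnmb* by 2.53 and *Cd68* by 2.48. Of 7 tested monocyte markers 6 rose and 0 fell, also after rescaling (summed level 12.6 to 89.3 TPM in WT and 63.8 to 151.4 TPM in KO livers), led by *Cx3cr1* with 2.61, *Fcgr4* with 1.83 and *Plac8* with 1.57. By group means, the largest part of that sum was *Nr4a1*, the tested marker that did not pass, at 23.9 ± 33.9 TPM in WT and 41.8 ± 34.5 TPM in KO livers (SD, n = 6 each). Of 7 tested biliary epithelial markers 5 rose and 1 fell, and 4 and 1 after rescaling (summed level 37.7 to 71.3 TPM in WT and 285.4 to 746.7 TPM in KO livers), led by *Spp1* with 3.76, *Prom1* with 3.03 and *Sox9* with 1.57. Most of that sum was *Spp1*, at 33.8 ± 11.2 TPM in WT and 492 ± 195 TPM in KO livers (SD, n = 6 each). Of the duct markers named after their values were seen, *Epcam* fell from a mean of 0.940 to 0.515 TPM (log2 -0.35, limma adjusted p = 0.0312), *Krt19* did not pass the test with means of 1.38 TPM in WT and 1.25 TPM in KO livers (log2 -0.12, limma adjusted p = 0.707), and *Krt7*, with means of 0.229 and 0.255 TPM, was under the level for testing. Of 8 tested red cell and platelet genes 1 rose, *Pf4* by 1.65, and the list summed to 790.1 to 2166 TPM in WT and 570.5 to 3404 TPM in KO livers. Their part in the differences of *Lcn2*, *Il1b*, *Mmp9* and *Trem1* was not tested.

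**Figure D4:**
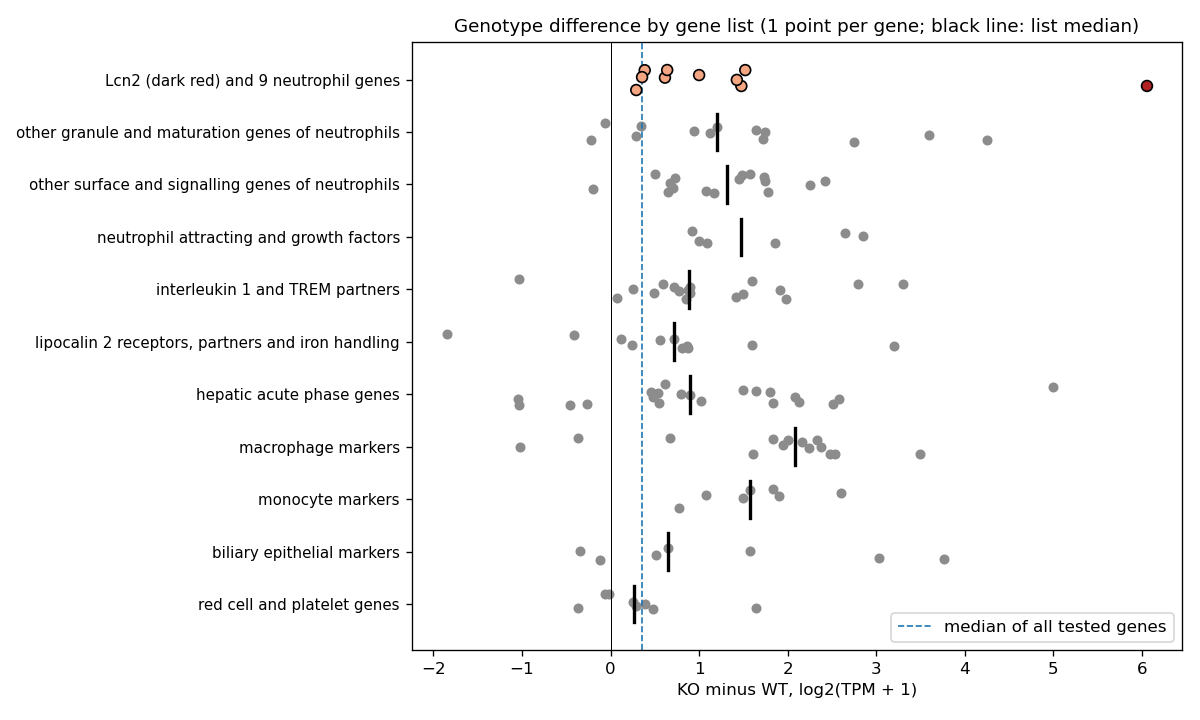
KO minus WT difference in log2(TPM + 1) for *Lcn2* (dark red), the 9 neutrophil genes and the tested genes of 10 lists, with 1 point per gene, list medians as black lines and the median of all tested genes, 0.35, as a dashed line; the members' row includes *Mmp8* and *Trem1*, which were not tested. *Lcn2* at 6.06 lies to the right of every other point, and the 9 neutrophil genes lie between 0.29 and 1.52.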

How the data were processed

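RNA was sequenced from 12 livers, and the authors deposited 1 column of TPM per liver, per the file headers; each column sums to the same total. The submitters' processing notes name edgeR and the build GRCm38; the aligner, the counter and the use of strand are not given in the sources used here. The deposited table also holds the authors' own fold change, log2 fold change and FDR p-value (rounded to 2 decimals), per the file headers. All sample columns were matched by title, and 0 were left unmatched.

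TPM were analysed as log2(TPM + 1) in 12278 genes with a mean of at least 0.5 TPM, with limma 3.58.1 in R 4.3.3 (lmFit, eBayes with trend; two-sided, Benjamini-Hochberg, threshold 0.05). Genotype was fitted over 12 livers with sex as a covariate; sex-specific effects, the interaction and sex differences came from 4 group means with a shared spread. *Mmp8* and *Trem1* were below the mean, and their values come from a fit of all 17332 genes above 0. Correlations used exact permutation over all 720 pairings (smallest p 0.00139 for Pearson's r and 0.00278 for Spearman's rho), adjusted over 18 relations. The p-values measure the spread between these livers. Rescaling divided each library by its median ratio to the geometric mean over 12819 genes above 0 in all livers. Reads recovered from TPM steps describe depth only and may be read pairs; limits for a listed 0 use 3 reads and cover counting error only.

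The members and lists were chosen with earlier results of these data known. Named beyond the members were, in each list, the 3 genes past the threshold with the largest absolute difference, and *Ly6g*, *Mpo*, *Elane*, *Camp*, *Ltf*, *Cxcr2*, *Csf3*, *Cxcl1*, *Cxcl2*, *Slc22a17*, *Lrp2*, *Saa1*, *Saa2* and *Saa3*, and the 5 genes most like *Lcn2* or *S100a8*. *Il1rap*, *Nr4a1*, *Cebpe*, *Epcam*, *Krt19*, *Krt7*, *Csf1*, *Lif* and *Il17ra* were added after their values were seen, to complete counts. *Chil3*, *Ifitm6* and *Itgam* were also named after their values were seen, as genes that reached the filter through the KO livers. *Yap1*, *Alb*, *Ttr*, *Apoa1*, *Cps1*, *Ptprc*, *Actb*, *Gapdh* and *Eef1a1* describe the libraries. Alternatives were rescaling, leaving out the 20 most abundant genes, a pseudocount of 0.1, no filter, a covariate for early animal numbers, eBayes without trend, sex-centred correlations and leaving out each liver.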

Additional observations from a re-analysis of the deposited data

How the results depend on the processing

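The *Lcn2* difference stayed between 5.60 and 6.39 on the log2 scale under every alternative run. The genotype count was 6745 genes, 4861 after rescaling and 6277 to 6880 with 1 liver left out. Rescaling lowered the count in males from 5663 to 2959, and the share of genotype calls that were higher from 91.2% to 52.8%. The interaction count was 112, and 75 to 176 with 1 liver left out (176 without WT male replicate 3). The count for sex in WT was 705, 409 with a covariate for early animal numbers, and 291 to 1698 with 1 liver left out (1698 without WT male replicate 3); for sex in KO it was 10, and 6 to 10. The cause was not tested. With a pseudocount of 0.1 the log2 difference was 1.58 for *Csf3r*, 1.48 for *Mmp8*, 0.996 for *Mmp9*, 1.41 for *Retnlg*, 1.80 for *Ngp* and 1.28 for *Trem1*, by construction larger for low values. With that pseudocount, with the early-number covariate, or without KO female replicate 1, 1 member, *Ngp*, passed for sex in WT. Leaving out 1 liver moved r of *Lcn2* across 0 in 7 of 18 relations: in KO with *Csf3r* (-0.282 to 0.597), *Ngp* (-0.899 to 0.0868), *Il1b* (-0.299 to 0.256) and *Trem1* (-0.833 to 0.180), and in WT with *Ngp* (-0.0882 to 0.579), *Il1b* (-0.525 to 0.223) and *Trem1* (-0.221 to 0.696). The adjusted count was 0 throughout, which says nothing of stability: with 5 livers the adjusted p of a lone relation cannot go below 0.15. The early animal numbers cover 1 WT and 1 KO female, and WT male replicate 2 alone carries a library code of another series, so neither gives a within-batch spread. No paired analysis was possible because the labels give no replicate numbers. Depth limits the 9 neutrophil genes, some with under 10 reads in a liver, and not *Lcn2*.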
